A study of Mus musculus with 5 samples.

Results

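Cbfa2t2, Cbfa2t3 and Runx1t1 are the mouse genes of the CBFA2T family of transcriptional corepressors, also called the ETO or MTG family. The members are defined by name, as the 3 of 15971 genes in the table that belong to the family. The series profiled individual cells of the embryonic mouse cerebellum by RNA sequencing and concerns where Group 3 and Group 4 medulloblastoma, tumours of the cerebellum, arise. The 5 libraries, all labelled cerebellum, form 3 groups by title: 2 RL libraries at e13, 2 RL libraries at e14 and 1 EomesCreER library at e16. RL is read here as rhombic lip, the dorsal germinal zone from which the glutamatergic neurons of the cerebellum arise. The titles of the RL libraries also carry the letters UT, which are not spelled out, and RL e13 replicate 2 has e14 in its age tag. EomesCreER names an allele with an inducible Cre driven from Eomes. The labels do not say how cells of that library were selected, which strain was used or whether replicates came from separate animals. In comparisons of classes, the p-values below therefore measure how the difference within a library varied from library to library. Between e14 and e13 they measure the spread between libraries. Either spread may be technical.

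CBFA2T proteins bind no DNA of their own. They are brought to genes by DNA-binding factors, among them the E proteins, which form pairs with proneural factors of the bHLH class such as Atoh1, and they in turn bind histone deacetylases and other corepressors. Runx1t1 (MTG8, ETO) is best known from human leukaemia, where it is fused to RUNX1, Cbfa2t3 (MTG16, ETO2) for its part in blood progenitors, and Cbfa2t2 (MTGR1) for its part in germ cells and the intestine. In the rhombic lip, progenitors with Sox2 give rise to cells with Atoh1, which go on to granule cells, to unipolar brush cells that carry Eomes and Lmx1a, or to neurons of the cerebellar nuclei.

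The genes lie on 3 chromosomes of GRCm38, by the GENCODE annotation. Cbfa2t2 runs from 154436481 to 154539356 on the plus strand of chromosome 2, Cbfa2t3 from 122625141 to 122699109 on the minus strand of chromosome 8, and Runx1t1 from 13743436 to 13893649 on the plus strand of chromosome 4. Promoter windows of 300 bases, 250 before and 50 after a RefSeq start (build GRCm38.p6), were matched for 2 of the 3 members. All matched windows are shown, with their E-boxes marked, because Atoh1 binds E-boxes with its E protein partners. Capitals mark every match to the E-box letters CANNTG, which read the same on both strands, and each window is written 5′ to 3′ on the strand of its gene.
Cbfa2t2, chr2:154436234-154436533, plus strand: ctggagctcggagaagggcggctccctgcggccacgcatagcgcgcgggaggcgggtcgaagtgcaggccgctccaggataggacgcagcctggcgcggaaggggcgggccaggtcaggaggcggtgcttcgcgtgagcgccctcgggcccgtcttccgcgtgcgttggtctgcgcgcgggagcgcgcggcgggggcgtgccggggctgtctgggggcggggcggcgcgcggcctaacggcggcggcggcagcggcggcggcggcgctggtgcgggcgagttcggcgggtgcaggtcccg
Cbfa2t3 upstream start, chr8:122699060-122699359, minus strand: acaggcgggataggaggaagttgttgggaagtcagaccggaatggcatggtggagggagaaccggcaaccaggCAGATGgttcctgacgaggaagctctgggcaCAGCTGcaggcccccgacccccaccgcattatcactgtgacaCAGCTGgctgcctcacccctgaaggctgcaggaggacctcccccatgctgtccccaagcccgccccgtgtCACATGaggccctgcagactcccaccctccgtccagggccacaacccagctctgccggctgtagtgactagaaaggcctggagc
Cbfa2t3 downstream start, chr8:122678126-122678425, minus strand: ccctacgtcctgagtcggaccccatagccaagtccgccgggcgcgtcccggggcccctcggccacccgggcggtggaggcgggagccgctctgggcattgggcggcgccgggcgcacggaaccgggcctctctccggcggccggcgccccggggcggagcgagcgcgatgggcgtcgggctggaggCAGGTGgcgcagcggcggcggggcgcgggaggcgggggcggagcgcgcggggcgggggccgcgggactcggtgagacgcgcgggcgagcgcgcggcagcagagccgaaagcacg
The upstream Cbfa2t3 window held 4 E-boxes, 2 of them CAGCTG and 1 CAGATG, and is 63.67% G and C. The downstream Cbfa2t3 window held 1 E-box (81.67% G and C) and the Cbfa2t2 window held 0 (79% G and C). Of 32851 RefSeq promoter windows of the same length, 72.31% held 1 or more E-boxes, 6.487% held 4 or more and 1.896% held 2 or more copies of CAGCTG. The letters TGGGAA, which form the core of RBPJ sites, were present in the upstream Cbfa2t3 window and in 25.56% of all windows, counted on both strands. The RUNX core TGTGGT was in 0 of the 3 windows and in 16.76% of all windows. Such matches describe the letters of a window and do not show that a factor binds there.

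Each library held 706 to 2676 cells with a median of 10346 to 19970 UMIs per cell (unique molecular identifiers, which count captured molecules), and 6 cell barcodes occurred in more than 1 library. Cells were put into classes by 5 genes, none of them a member. In this order, cells with a UMI of both Eomes and Lmx1a were called Eomes and Lmx1a cells, and remaining cells with 3 or more Mapt UMIs per 10000 were called Mapt-high cells (Mapt is a microtubule protein of neurons). Of the rest, cells with 2 or more per 10000 of Sox2, of Atoh1 or of both were called Sox2 progenitors, Atoh1 progenitors, and Sox2 and Atoh1 cells. These held 1221 Sox2 progenitors, 302 Sox2 and Atoh1 cells, 1473 Atoh1 progenitors, 1814 Eomes and Lmx1a cells and 986 Mapt-high cells, with 1191 cells left over. Cut-offs split a range and not a type: 435 cells lay within 25% above or below the Sox2 cut-off, 473 around the Atoh1 cut-off and 166 around the Mapt cut-off. At or above these cut-offs were 1531, 1837 and 2565 cells. Of the Eomes and Lmx1a cells, 588 rested on exactly 1 UMI of either gene. Levels are means over the cells of a class and library in counts per 1000000 UMIs (CPM), given where the library had 20 or more such cells.

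Marker lists, which include genes used to form the classes, were summed in each class. The summed level of the 6 radial glial genes Sox2, Fabp7, Hes5, Slc1a3, Vim and Nes was 8320 to 14100 CPM in Sox2 progenitors, against 1713 to 3014 CPM in Atoh1 progenitors. The 6 postmitotic genes Mapt, Dcx, Tubb3, Stmn2, Gap43 and Ina summed to 13290 to 17600 CPM in Mapt-high cells, 6078 to 10590 CPM in Eomes and Lmx1a cells and 224.8 to 1768 CPM in the 3 progenitor classes. The list of Atoh1, Barhl1, Barhl2, Pax6 and Zic1 was not highest in its own class: it summed to 1574 to 1772 CPM in Atoh1 progenitors, against 2131 to 3758 CPM in Eomes and Lmx1a cells, 1648 to 2941 CPM in Mapt-high cells and 758 to 1007 CPM in Sox2 progenitors. The class named for Atoh1 thus rests on its cut-offs, and not on this list. Of the lists for other cells, endothelium reached at most 3.253 CPM in any class and library, microglia 8.142 and meninges 7.222. The oligodendrocyte lineage reached 21.88 CPM and red blood cells 65.19 CPM. The GABAergic list was highest in Sox2 progenitors, at 10.26 to 64.61 CPM, against 2.094 to 10.36 CPM in Atoh1 progenitors. Its 64.61 CPM, in RL e14 replicate 2, exceeded the level of each member in those cells. Whether GABAergic lineage cells are among the Sox2 progenitors was not tested. The roof plate and choroid plexus list reached 1064 CPM in left-over cells and at most 74.17 CPM in the 5 classes. Most Mapt-high cells also held Eomes UMIs, 174 of 209 in the RL libraries and 651 of 777 in the e16 library.

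RL e13 replicate 1 stood apart from the other RL libraries. Sox2 progenitors made up 59.3% of its cells, against 15.5 to 27.9% in the others, and it held 1 Eomes and Lmx1a cell and 1 Mapt-high cell. Its Sox2 and Atoh1 cells had 21.4 CPM of Barhl1, a homeobox factor that marks the granule lineage, against 210 to 344 CPM in the others. They had 1593 CPM of the radial glial gene Fabp7, against 403 to 883 CPM. Tested differences of the members that include this library are given with and without it. The library was singled out from these same data, also by Barhl1, which is among the genes most like Cbfa2t3 (r = 0.954). Fits without it are therefore no independent support. Mean levels, shares, detection and likeness to other genes are given only with it.

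The 3 members followed different courses (the plot of levels by class). Cbfa2t2 averaged 22.9 ± 1.56 CPM in Sox2 progenitors, 90.6 ± 43.4 in Sox2 and Atoh1 cells and 96.1 ± 17.9 in Atoh1 progenitors (SD, n = 4 RL libraries each). It averaged 52.9 ± 17.4 CPM in Eomes and Lmx1a cells and 46.8 ± 12.5 in Mapt-high cells (SD, n = 3 RL libraries each). Both of these classes lay between the Sox2 progenitors and the Atoh1 progenitors. Cbfa2t3 averaged 9.46 ± 6.47, 128 ± 80.1 and 178 ± 45.8 CPM in the same 3 progenitor classes, and 114 ± 24.7 CPM in Eomes and Lmx1a cells and 89.1 ± 12.7 CPM in Mapt-high cells. Both genes thus had their highest mean in Atoh1 progenitors, for Cbfa2t2 by a small margin. Both e14 libraries had more Cbfa2t2 in Sox2 and Atoh1 cells (104 and 123 CPM) than in Atoh1 progenitors (86.9 and 101 CPM). Runx1t1 averaged 17.6 ± 4.99, 30.0 ± 11.7 and 63.2 ± 28.1 CPM in the progenitor classes, then 126 ± 19.3 CPM in Eomes and Lmx1a cells and 284 ± 48.4 CPM in Mapt-high cells. Its highest mean over RL libraries was that of the Mapt-high cells. The e16 group has a single library and gave no level for progenitors, since it held 9 Sox2 and 14 Atoh1 progenitors.

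**Figure D1:**
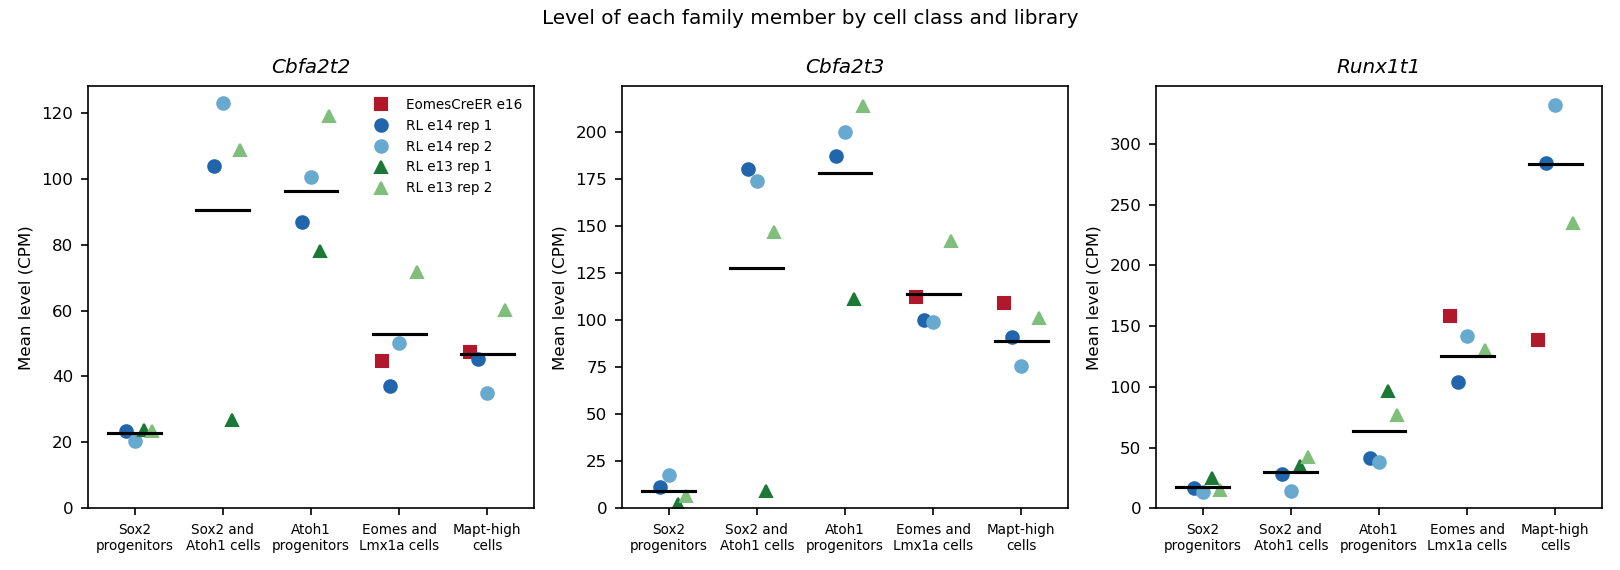
Mean level in CPM (y axis, from 0) of each member in each cell class (x axis), with a point for each library that held 20 or more cells of the class; black bars are means over RL libraries. Cbfa2t2 and Cbfa2t3 have their highest mean in Atoh1 progenitors, and Runx1t1 has its highest, 284 CPM, in Mapt-high cells. In both e14 libraries Cbfa2t2 is higher in Sox2 and Atoh1 cells than in Atoh1 progenitors.

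Atoh1 progenitors had higher levels of all 3 members than Sox2 progenitors of the same library. Cbfa2t3 had 187 and 200 CPM in Atoh1 progenitors of the e14 libraries and 111 and 214 CPM in those of the e13 libraries, against 11.1, 17.6, 2.49 and 6.63 CPM in Sox2 progenitors. The log2 difference was 3.74 ± 0.17 (SE, 4 pairs, limma adjusted p = 2.6e-05), the 19th of 8426 genes by size. For Cbfa2t2 the Atoh1 progenitors had 86.9, 101, 78.0 and 119 CPM, against 23.4, 20.5, 23.9 and 23.6 CPM in Sox2 progenitors, a difference of 1.85 ± 0.12 (adjusted p = 9.4e-05). Its level in Sox2 progenitors hardly varied between libraries. Runx1t1 had 41.6, 38.4, 96.3 and 76.6 CPM in Atoh1 progenitors, against 16.6, 13.5, 24.8 and 15.3 CPM in Sox2 progenitors (1.53 ± 0.16, adjusted p = 0.00062). Here the e13 libraries had the higher Atoh1 values. In this comparison 29.4% of all genes tested were called, 10.9% as higher and 18.5% as lower. Without RL e13 replicate 1 the differences were 3.66, 1.95 and 1.45 for Cbfa2t3, Cbfa2t2 and Runx1t1 (adjusted p 2.19e-07, 6.72e-07 and 0.00011).

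Sox2 and Atoh1 cells, which carry both progenitor genes, had higher levels of Cbfa2t2 and Cbfa2t3 than Sox2 progenitors, by far the more so in 3 of the 4 RL libraries. Cbfa2t3 stood at 180, 174 and 147 CPM in RL e14 replicates 1 and 2 and RL e13 replicate 2, against 11.1, 17.6 and 6.63 CPM in Sox2 progenitors. In RL e13 replicate 1 it stood at 9.43 CPM, against 2.49 CPM in Sox2 progenitors. For Cbfa2t2 the 3 libraries gave 104, 123 and 109 CPM and RL e13 replicate 1 gave 26.7 CPM, close to the 23.9 CPM of its Sox2 progenitors. The same library thus stood apart for both genes, and its low Barhl1 and high Fabp7 in this class are given above. Whether those genes bear on it was not tested. Against Sox2 progenitors the difference was 2.79 ± 0.40 for Cbfa2t3 (limma adjusted p = 0.0053) and 1.60 ± 0.32 for Cbfa2t2 (adjusted p = 0.018), with 10.4% of genes called, 3.79% as higher and 6.64% as lower. Without RL e13 replicate 1 these were 3.41 (adjusted p = 3.89e-07) and 2.09 (adjusted p = 2.13e-06), and 1486 genes were called instead of 875. Left out in turn, each other library ended the Cbfa2t2 call: 1.47 (adjusted p = 0.113) without RL e13 replicate 2, 1.49 (0.138) without RL e14 replicate 1 and 1.36 (0.0711) without RL e14 replicate 2. The Cbfa2t3 call was also lost without RL e14 replicate 1 (2.55, adjusted p = 0.0628).

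For Runx1t1 the same comparison missed the threshold. It had 28.5, 14.5, 35.1 and 41.9 CPM in Sox2 and Atoh1 cells of RL e14 replicates 1 and 2 and RL e13 replicates 1 and 2, against 16.6, 13.5, 24.8 and 15.3 CPM in Sox2 progenitors. The difference was 0.59 ± 0.19 (limma adjusted p = 0.099), or 0.64 without RL e13 replicate 1 (adjusted p = 0.0743), and it passed with the cut-offs halved (1.02, adjusted p = 0.012) or applied to cells thinned to 8000 UMIs (0.91, adjusted p = 0.022). Atoh1 progenitors, set against the Sox2 and Atoh1 cells, had more Runx1t1 in all 4 libraries (0.94 ± 0.15, adjusted p = 0.0033, with 5.58% of genes called, 2.74% as higher and 2.84% as lower). Without RL e13 replicate 1 that difference was 0.81 (adjusted p = 0.0044). For Cbfa2t2 and Cbfa2t3 the same comparison gave 0.25 ± 0.23 (adjusted p = 0.65) and 0.95 ± 0.38 (adjusted p = 0.24). Without RL e13 replicate 1 they were -0.13 (adjusted p = 0.583) and 0.26 (adjusted p = 0.145), so that the sign for Cbfa2t2 turned. The depth of cells with both genes was a median of 15358 to 22093 UMIs by library, against 16399 to 21585 UMIs in Atoh1 progenitors.

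Within the range of Sox2, Cbfa2t2 and Cbfa2t3 changed over a narrow stretch (the plot of levels along Sox2 and Mapt). In RL e14 replicate 1 Cbfa2t3 had 150, 165, 170, 116, 30.2 and 16.3 CPM in cells with no Sox2, up to 1, 1 to 2, 2 to 4, 4 to 8 and 8 or more Sox2 UMIs per 10000. Cbfa2t2 had 68.1, 76.4, 74.7, 78.0, 29.2 and 20.7 CPM in the same bins. Both were low from 4 Sox2 UMIs per 10000 on, and Runx1t1 had 94.8, 54.0, 27.3, 27.7, 18.4 and 11.0 CPM and was lower from the lowest Sox2 bin on. In RL e14 replicate 2 and RL e13 replicate 2 Cbfa2t3 was at 167 and 162 CPM at 1 to 2 Sox2 UMIs per 10000 and at 11.4 and 8.70 CPM at 4 to 8. RL e13 replicate 1 had 136 CPM of Cbfa2t3 without Sox2, 51.3 CPM at up to 1 and 12.2 CPM at 1 to 2, so that its level was low at a Sox2 level where the other 3 libraries had 162 to 170 CPM.

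Along Atoh1, Cbfa2t2 and Cbfa2t3 were highest in the last bin of all 4 RL libraries. In RL e14 replicate 2 Cbfa2t3 had 61.3, 107, 152, 177, 197 and 266 CPM at 0, up to 1, 1 to 2, 2 to 4, 4 to 8 and 8 or more Atoh1 UMIs per 10000, and Cbfa2t2 had 29.4, 69.6, 78.7, 84.6, 109 and 158 CPM. Runx1t1 was lowest in the last bin of both e14 libraries and of neither e13 library. It had 87.8, 75.01, 64.1, 52.6, 33.1 and 22.8 CPM in RL e14 replicate 1, 134, 63.7, 79.9, 43.6, 31.9 and 14.9 CPM in RL e14 replicate 2, 29.0, 27.7, 44.1, 74.0, 60.1 and 73.0 CPM in RL e13 replicate 1, and 54.6, 113, 114, 80.3, 66.8 and 60.7 CPM in RL e13 replicate 2. In the e16 library, which held few cells with Atoh1, Cbfa2t3 had 110, 129, 128 and 182 CPM in the 4 lowest Atoh1 bins, and Runx1t1 had 148, 80.6, 93.4 and 75.1 CPM. These bins mix classes, since cells without Atoh1 include both Sox2 progenitors and neurons, and share depth and library, so that they are a description.

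**Figure D2:**
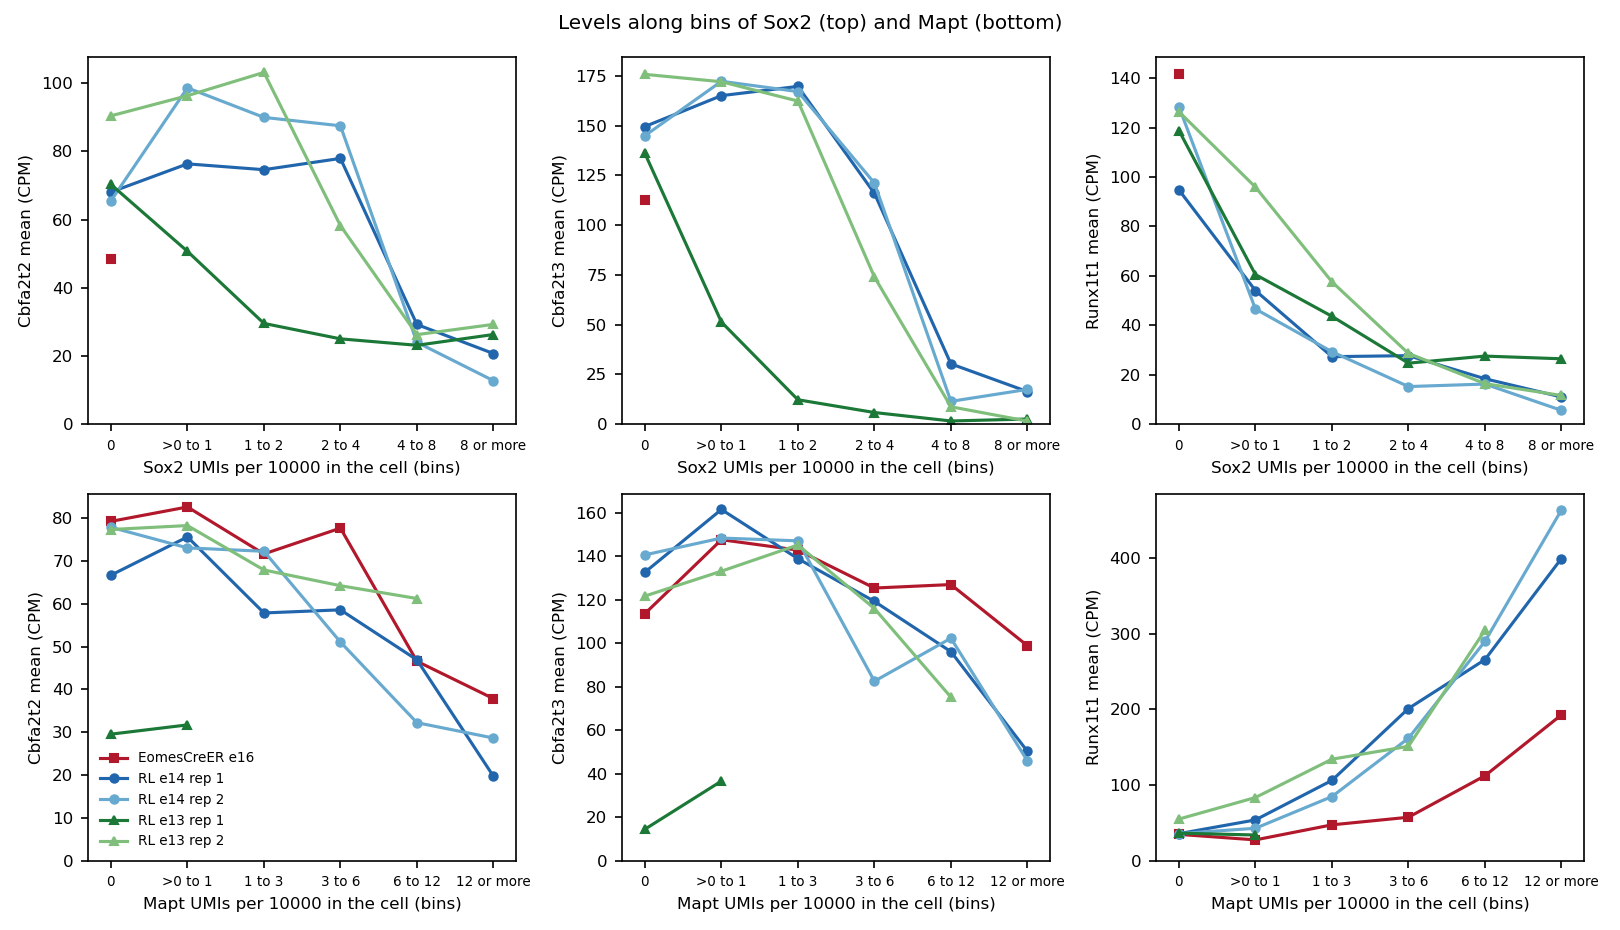
Mean level in CPM (y axis, from 0) of each member in bins of Sox2 (upper row) or Mapt (lower row) UMIs per 10000 of the cell (x axis), with a line for each library and only bins of 20 or more cells. Cbfa2t3 is at most 30.2 CPM in bins of 4 or more Sox2 UMIs per 10000, and Runx1t1 is highest in the last Mapt bin drawn for all libraries but RL e13 replicate 1.

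In cells with Eomes and Lmx1a, T-box and LIM homeobox factors of the brush cell lineage, Cbfa2t2 and Cbfa2t3 were lower and Runx1t1 higher than in Atoh1 progenitors. Cbfa2t2 had 37.0, 50.2 and 71.6 CPM in Eomes and Lmx1a cells of RL e14 replicates 1 and 2 and RL e13 replicate 2, against 86.9, 101 and 119 CPM in Atoh1 progenitors (-0.92 ± 0.13, limma adjusted p = 0.00086). Cbfa2t3 had 99.9, 99.0 and 142 CPM, against 187, 200 and 214 CPM (-0.81 ± 0.11, adjusted p = 0.00074). Both fell in each of the 3 libraries and stayed above the level of Sox2 progenitors. Runx1t1 had 104, 142 and 131 CPM in Eomes and Lmx1a cells, against 41.6, 38.4 and 76.6 CPM in Atoh1 progenitors (1.24 ± 0.18, adjusted p = 0.00083). It rose in each library. Of all genes tested 26.2% were called, 13.7% as higher and 12.5% as lower. In the e16 library, not part of that test, the Eomes and Lmx1a cells had 44.6 CPM of Cbfa2t2, 112 CPM of Cbfa2t3 and 158 CPM of Runx1t1. The first 2 values lay within the range of the RL libraries and the third above it. The make-up of the class differed too: 1526 of its 1659 cells in the e16 library were also Mapt-high, against 7 of 38, 24 of 47 and 22 of 69 cells in RL e14 replicates 1 and 2 and RL e13 replicate 2.

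Mapt-high cells outside that class likewise had less Cbfa2t2 and Cbfa2t3 and more Runx1t1 than Atoh1 progenitors. Runx1t1 had 284, 332 and 235 CPM in Mapt-high cells of RL e14 replicates 1 and 2 and RL e13 replicate 2, against 41.6, 38.4 and 76.6 CPM in Atoh1 progenitors, a difference of 2.38 ± 0.20 (limma adjusted p = 2.3e-06). Cbfa2t2 had 45.4, 35.1 and 60.04 CPM, against 86.9, 101 and 119 CPM (-1.07 ± 0.13, adjusted p = 2.7e-05). Cbfa2t3 had 90.8, 75.7 and 101 CPM, against 187, 200 and 214 CPM (-1.13 ± 0.10, adjusted p = 2.6e-06). For each member the direction was the same in every library compared. In this comparison 59.4% of genes passed the threshold, 30.1% as higher and 29.3% as lower, so that a call alone says little about the members. RL e13 replicate 1, with 1 cell in either class, entered neither comparison.

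Eomes and Lmx1a cells and Mapt-high cells were also set against each other, and no difference in Cbfa2t2 or Cbfa2t3 passed the threshold. Eomes and Lmx1a cells minus Mapt-high cells gave 0.09 ± 0.16 for Cbfa2t2 (limma adjusted p = 0.75) and 0.25 ± 0.12 for Cbfa2t3 (adjusted p = 0.21), over 4 libraries and with 7.82% of genes called, 3.98% as higher and 3.84% as lower. For Runx1t1 the libraries disagreed. The 3 RL libraries had 104, 142 and 131 CPM in Eomes and Lmx1a cells, against 284, 332 and 235 CPM in Mapt-high cells, while the e16 library had 158 CPM against 139 CPM. The difference over all 4 was -0.81 ± 0.23 (adjusted p = 0.064), and over the 3 RL libraries alone it was -1.14 (adjusted p = 3.11e-05). Without the e16 library 1818 genes were called instead of 642. The Mapt-high cells of the e16 library also carried more Otx2, a homeobox factor of the brush cell lineage: 416 CPM, against 41.9 to 69.7 CPM in those of the RL libraries. Within the e16 library, the 126 Mapt-high cells without Eomes UMIs had 264 CPM of Runx1t1 and the 651 with Eomes UMIs had 114 CPM, while in the RL libraries the Mapt-high cells with Eomes had 238 to 315 CPM. Mapt is a gate for only 1 of the 2 classes. Among Eomes and Lmx1a cells, the Mapt-high ones had 221 and 224 CPM of Runx1t1 in RL e14 replicate 2 and RL e13 replicate 2. In the e16 library they had 168 CPM. The part of Otx2, Eomes or Mapt in this difference was not tested.

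Within the Eomes and Lmx1a class, cells with more Mapt had more Runx1t1 and less Cbfa2t2. Runx1t1 had 168, 221 and 224 CPM in Mapt-high cells of the class in the e16 library, RL e14 replicate 2 and RL e13 replicate 2, against 44.3, 58.6 and 87.1 CPM in Mapt-low cells (1.65 ± 0.18, limma adjusted p = 5.6e-05, with 23.7% of genes called, 12.1% as higher and 11.6% as lower). Within Mapt-high and within Mapt-low cells the e16 value was the lowest of the 3. Runx1t1 rose in all 3 libraries with enough cells, and with e16 left out it stood 1.57 higher over the 2 libraries that remained. Cbfa2t2 had 42.0, 40.01 and 44.8 CPM in Mapt-high cells, against 74.6, 60.8 and 84.1 CPM in Mapt-low cells (-0.72 ± 0.20, adjusted p = 0.024). That call was lost without the e16 library (-0.69, adjusted p = 0.0812) or without RL e13 replicate 2 (-0.65, adjusted p = 0.0737). Cbfa2t3 had 109, 97.4 and 81.0 CPM, against 149, 101 and 171 CPM, and its difference of -0.50 ± 0.20 missed the threshold (adjusted p = 0.094). It passed without RL e14 replicate 2 (-0.73, adjusted p = 0.0355). Each fit that left out a library here rested on 2 libraries, so its adjusted p draws on the spread of other genes.

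Over all cells, Runx1t1 was also binned by Mapt alone. RL e14 replicate 2 had 35.7, 42.7, 84.6, 162, 290 and 464 CPM at 0, up to 1, 1 to 3, 3 to 6, 6 to 12 and 12 or more Mapt UMIs per 10000. The e16 library had 34.7, 27.4, 47.2, 57.3, 112 and 193 CPM in the same bins. The first bins were alike, and the e16 library was lower in each later bin. Cbfa2t2 had 77.9, 73.1, 72.3, 51.1, 32.2 and 28.6 CPM in RL e14 replicate 2 and 79.3, 82.7, 71.7, 77.7, 46.6 and 37.9 CPM in the e16 library. Cbfa2t3 in the highest Mapt bin was at 98.9 CPM in the e16 library, against 50.3 and 45.9 CPM in the 2 e14 libraries.

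**Figure D3:**
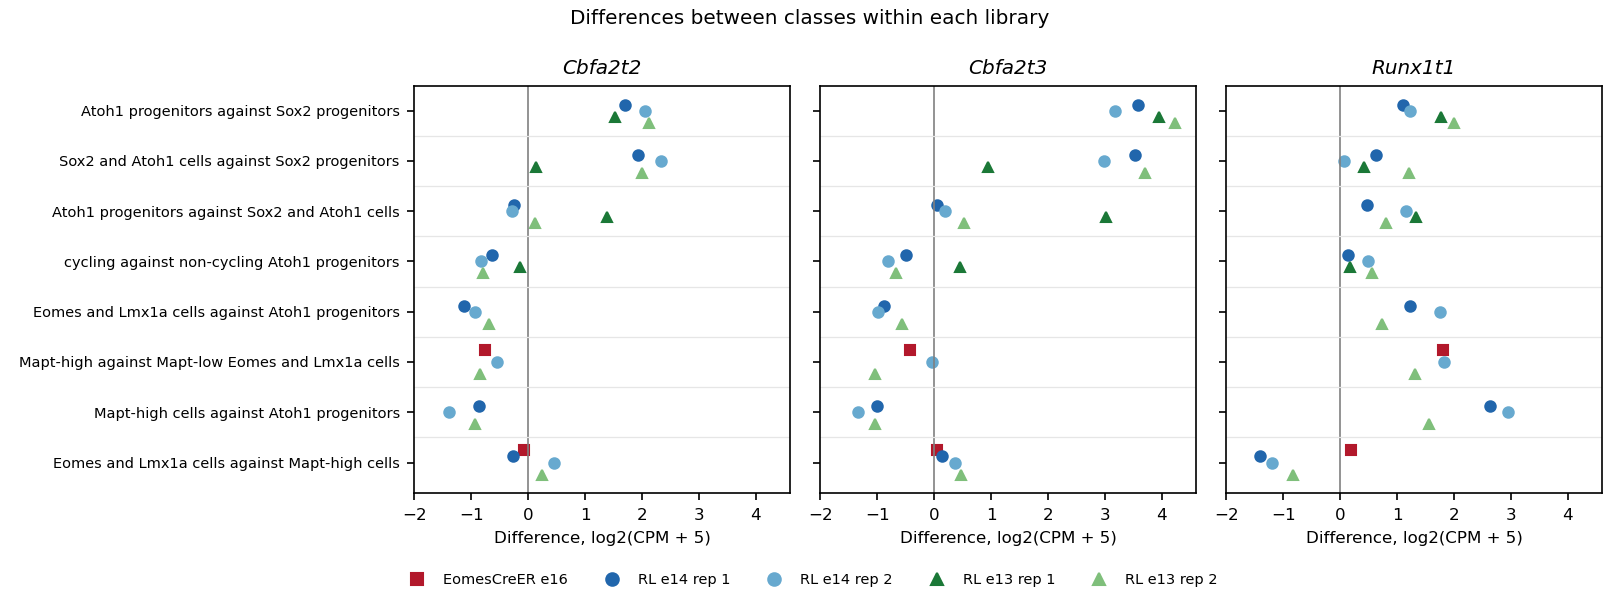
Difference of the class named first minus the class named second on the log2(CPM + 5) scale (x axis) for each comparison (rows), with a point for each library. All Cbfa2t2 and Cbfa2t3 points are above 0 in Atoh1 against Sox2 progenitors and below 0 in Eomes and Lmx1a cells and in Mapt-high cells against Atoh1 progenitors, where all Runx1t1 points are above 0.

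As shares of the UMIs of the family, the members changed places from class to class (the plot of family composition). Because capture can differ from gene to gene, a share compares classes and not genes. The family as a whole had 44.9 to 54.0 UMIs per 1000000 in Sox2 progenitors, 288 to 398 in Atoh1 progenitors, 241 to 333 in Eomes and Lmx1a cells and 293 to 465 in Mapt-high cells. In Sox2 progenitors Cbfa2t2 made up 42.5 to 49.6% of those UMIs and Cbfa2t3 4.70 to 32.6%, the low end being RL e13 replicate 1 (18 of 383 UMIs, Wilson 95% interval 2.99 to 7.31%). Atoh1 progenitors had 42.0 to 59.1% Cbfa2t3 and 11.2 to 32.0% Runx1t1. Runx1t1 made up 36.7 to 51.0% in Eomes and Lmx1a cells and 60.9 to 76.1% in Mapt-high cells of the RL libraries, against 47.4% in those of the e16 library (1258 of 2655 UMIs, 45.5 to 49.3%). The intervals cover counting error only.

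**Figure D4:**
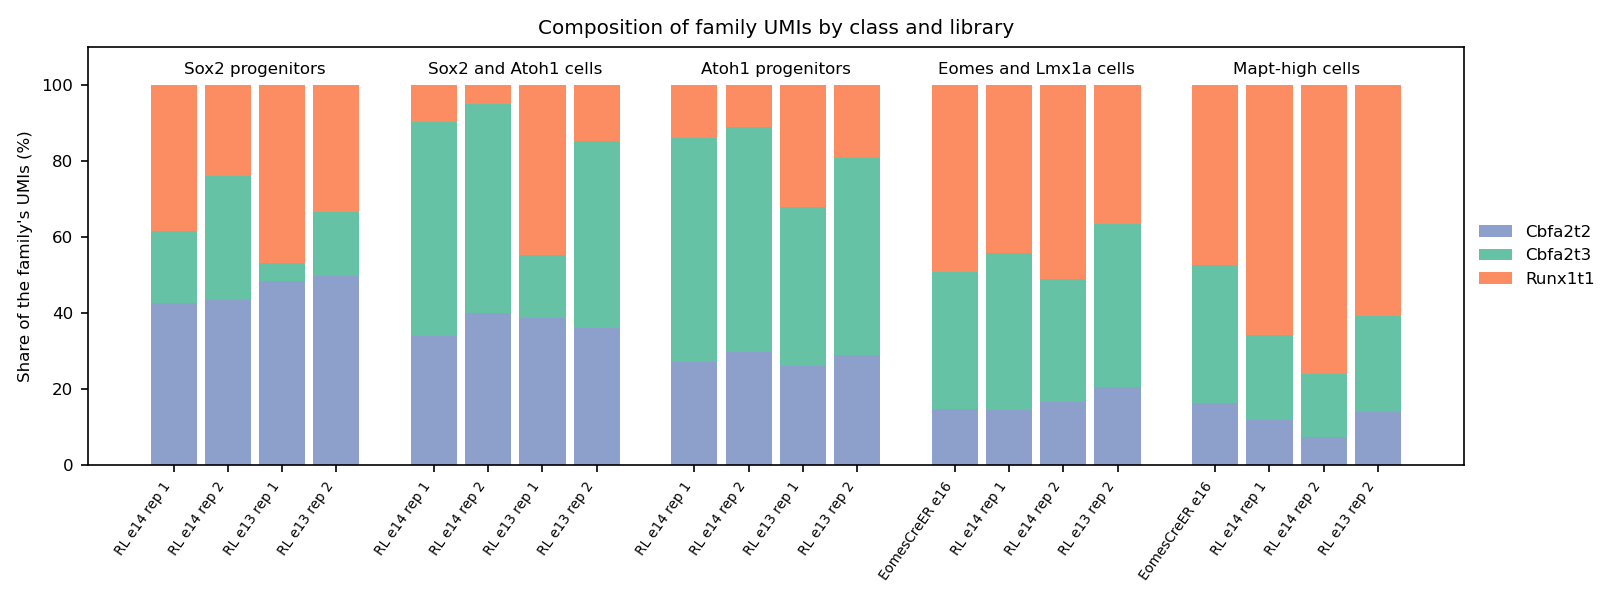
Share of the UMIs of the 3 members (y axis, percent) held by each member, stacked, for each library (x axis) within each class. The Runx1t1 share is 11.2 to 32.0% in Atoh1 progenitors and 60.9 to 76.1% in Mapt-high cells of the RL libraries.

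Most Sox2 progenitors had no UMI of the family. With each cell thinned to 8000 UMIs and shallower cells left out, 70.2 to 73.9% of Sox2 progenitors had none of the 3, against 8.14 to 32.0% of Atoh1 progenitors by library. Cbfa2t3 was detected in 34.7 to 73.2% of Atoh1 progenitors, against 1.22 to 8% of Sox2 progenitors (50.6 to 93.0% and 3.82 to 9.57% before thinning, at median depths of 16399 to 21585 and 14954 to 17996 UMIs). No class here is known to lack the gene, and Sox2 progenitors had its lowest share. Runx1t1 was detected after thinning in 77.4 to 81.1% of Mapt-high cells of the RL libraries, 48.1% of those of the e16 library and 18.1 to 35.2% of Atoh1 progenitors (87.5 to 88.3%, 54.3% and 30.2 to 62.3% before thinning).

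Members also occurred together in a cell. All 3 were seen together after thinning in 5.33 to 13.6% of Atoh1 progenitors and 8.11 to 20.6% of Mapt-high cells of the RL libraries. Cbfa2t2 and Cbfa2t3 occurred in the same cell slightly more often than the product of their shares in all 4 libraries of Atoh1 progenitors, by ratios of 1.03 to 1.39. In RL e13 replicate 2, where 305 of 676 Atoh1 progenitors held both, Cbfa2t3 was seen in 78.8% of cells with Cbfa2t2 and in 65.7% of cells without it. In Eomes and Lmx1a cells the ratio for this pair was 0.89 to 1.21, and in the other classes it was above 1 in every library. For Cbfa2t3 and Runx1t1 the ratio in Atoh1 progenitors was 0.84 to 0.95, below 1 in all 4 libraries. In each other class it lay on both sides of 1, at 0.78 to 1.2 in Eomes and Lmx1a cells and 0.85 to 1.07 in Mapt-high cells. These ratios describe cells of 1 library each, which are not replicates.

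Among Atoh1 progenitors, cycling cells (2 or more UMIs of Mki67 and Top2a per 10000) had less Cbfa2t2 than cells with neither UMI. It had 66.4, 65.7, 71.5 and 87.2 CPM in cycling cells of RL e14 replicates 1 and 2 and RL e13 replicates 1 and 2, against 106, 120, 79.1 and 155 CPM in non-cycling cells (-0.60 ± 0.12, limma adjusted p = 0.0068, with 28.6% of genes called, 14.6% as higher and 14.1% as lower). Without RL e13 replicate 1 the difference was -0.75 (adjusted p = 1.71e-07). Cbfa2t3 had 145, 138 and 165 CPM in cycling cells of the other 3 libraries, against 206, 245 and 265 CPM. In RL e13 replicate 1 the order was the reverse, with 110 CPM in cycling cells, against 79.7 CPM in non-cycling ones. Its difference over 4 libraries was -0.38 ± 0.18 (adjusted p = 0.14), and without RL e13 replicate 1 it was -0.66 (adjusted p = 1.24e-07). That second fit leaves out the library whose sign was opposite. Runx1t1 was higher in cycling cells of all 4 libraries, by 0.34 ± 0.11 (adjusted p = 0.044). The Runx1t1 call was lost under 9 of 13 alternatives, among them leaving out RL e13 replicate 2 (0.27, adjusted p = 0.231), RL e14 replicate 1 (0.41, 0.0657) or RL e14 replicate 2 (0.29, 0.156); without RL e13 replicate 1 it was 0.39 (0.00498).

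Over Sox2 and Atoh1 progenitors weighted equally, no member differed between the 2 e14 and the 2 e13 libraries at the threshold, where 0% of 8426 genes were called by limma and 1224 had an unadjusted p under 0.05. Runx1t1 had 27.5 ± 2.24 CPM at e14 and 53.3 ± 10.3 CPM at e13 (SD, n = 2 each), a difference of -0.83 ± 0.16 (limma adjusted p = 0.29, unadjusted p = 0.0024). Both e14 values lay below both e13 values, also within Atoh1 progenitors (41.6 and 38.4 CPM, against 96.3 and 76.6 CPM). Within Sox2 progenitors the values overlapped (16.6 and 13.5 CPM, against 24.8 and 15.3 CPM). How many other genes had such an order was not counted. Cbfa2t2 and Cbfa2t3 gave -0.06 ± 0.17 (adjusted p = 0.89) and 0.37 ± 0.29 (adjusted p = 0.57). Without RL e13 replicate 1 the values were -0.65 for Runx1t1, -0.28 for Cbfa2t2 (adjusted p = 0.979 each) and -0.08 for Cbfa2t3 (adjusted p = 0.983), whose sign turned. When the age tag of RL e13 replicate 2 is used in place of its title, e13 is RL e13 replicate 1 alone, and Cbfa2t3 gave 0.84 (adjusted p = 0.047). In that grouping age and the library that stood apart cannot be told apart.

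Over 25 profiles of a class and library, left-over cells included, the genes most like each member by Pearson r of log2(CPM + 5) were looked up among 8510 genes. The profiles share libraries and classes, so r is a description. For Cbfa2t3 they were Hsd11b2 (0.976), an enzyme that inactivates glucocorticoids, Lzts1 (0.957), Barhl1 (0.954), Fam212b (0.951) and Insm1 (0.944), a zinc finger factor of newborn neurons. For Cbfa2t2 they were the inhibitory SMAD gene Smad7 (0.896), Hsd11b2 (0.894), Ebf2 (0.888), the GTPase gene Rhob (0.881) and the stress response gene Ddit4 (0.880), and Cbfa2t3 came 9th (0.877). These 2 members thus shared Hsd11b2 among their 5. Runx1t1 had Apc (0.948), the neurofilament gene Nefl (0.946), the neuronal zinc finger gene Myt1l (0.943), Ube2d1 (0.943) and the neuronal ubiquitin hydrolase gene Uchl1 (0.942), with r of 0.42 to Cbfa2t3 and 0.0934 to Cbfa2t2.

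The genes of 33 proteins that bind the family or its recruiting factors were followed as a list. Of these 30 were in the table and 25 passed the filter on low values. In Atoh1 against Sox2 progenitors 6 of the 25 were higher and 3 lower, where 10.9% and 18.5% of all genes were, with a median log2 difference of 0.0346, against -0.0504 over all genes. Rcor2, a corepressor of the CoREST complex, had 140 ± 10.3 CPM in Atoh1 progenitors and 27.5 ± 3.97 CPM in Sox2 progenitors (SD, n = 4; 2.16 ± 0.10, limma adjusted p = 3.0e-05). Prkar2a, a regulatory subunit of protein kinase A, was also higher (0.86 ± 0.13, adjusted p = 0.0032), and Tcf12, an E protein gene, was lower at 109 ± 17.4 CPM against 248 ± 30.0 CPM (-1.16 ± 0.09, adjusted p = 0.00017). These differences were 2.25, 1.02 and -1.23 without RL e13 replicate 1 (adjusted p 1.31e-07, 8.68e-06 and 2.29e-06). In Sox2 and Atoh1 cells against Sox2 progenitors 3 of 25 were higher (Rcor2, Rbpj and Kdm1a) and 0 lower, where 3.79% and 6.64% of all genes were. Each of these calls was lost on leaving out a library: Rcor2 without RL e14 replicate 1 (adjusted p = 0.0545), and Rbpj and Kdm1a without RL e13 replicate 2 (0.257 and 0.229) or either e14 library (0.0863 to 0.163). In Atoh1 progenitors against Sox2 and Atoh1 cells Tcf12 and Lmo4 were lower and 0 were higher, where 2.84% and 2.74% of all genes were. The Lmo4 call was lost whichever library was left out (adjusted p 0.0505 to 0.111), and the Tcf12 call without RL e13 replicate 2 (0.0767) or RL e14 replicate 1 (0.0752).

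The list was also followed in the later classes. Eomes and Lmx1a cells had 2 partner genes higher than Atoh1 progenitors, Lmo2, which bridges E protein complexes (2.03 ± 0.18, limma adjusted p = 5.4e-05), and Tcf4, an E protein gene (0.54 ± 0.10, adjusted p = 0.0033), and 2 lower, Tcf3 and Prkar2a, where 13.7% and 12.5% of all genes were. The Tcf4 call was lost without RL e13 replicate 2 (adjusted p = 0.0754) and the Prkar2a call without RL e14 replicate 1 (0.072). Mapt-high cells had 7 of 25 higher and 11 lower than Atoh1 progenitors, where 30.1% and 29.3% of all genes were, with a median of -0.149 against -0.00253 over all genes. The E protein gene Tcf3 had 82.1 ± 15.4 CPM in Mapt-high cells and 177 ± 2.47 CPM in Atoh1 progenitors (SD, n = 3; -1.08 ± 0.11, adjusted p = 7.1e-06), and Lmo2 was higher by 1.06 ± 0.15 (adjusted p = 0.00012). Lmo2 and Tcf3 were higher in Eomes and Lmx1a cells than in Mapt-high cells, with 0 lower, where 3.98% and 3.84% of all genes were. Both calls were lost without RL e13 replicate 2 (adjusted p = 0.121 and 0.204) or RL e14 replicate 2 (0.108 and 0.187), and that of Tcf3 also without RL e14 replicate 1 (0.133). Within the Eomes and Lmx1a class 5 were lower in Mapt-high cells, led by Tcf3 (-1.28 ± 0.17, adjusted p = 0.00029), Hdac1 and Cbfb, and 0 higher, where 11.6% of all genes were lower. The Cbfb call was lost without RL e13 replicate 2 (adjusted p = 0.289). In cycling against non-cycling Atoh1 progenitors 5 were higher, led by Prkar2a, Cbfb and Lmo4, and 2 lower, where 14.6% and 14.1% of all genes were. The Lmo4 call there was lost without RL e14 replicate 1 (adjusted p = 0.0597). Between e14 and e13 libraries 0 partner genes were called.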

How the data were processed

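Single cells had been processed with Chromium 3′ kits, versions 3 and 3.1, per the labels' protocols. Cell Ranger and mm10 are named in the submitters' processing notes. Cell and gene filters and any removal of doublets are not given in these sources, and no doublet caller was run. The table deposited by the authors holds natural log values, ln(1 + 10000 × UMIs / total UMIs of the cell). This was worked out from the values: back-transformed they sum to 10000 in every cell, and all 29540669 values above 0 are whole UMI counts within 0.01 of a count. Libraries had 686 to 2374 cells with 8000 or more UMIs. A second deposited file names the batch of each cell. 4 batch names matched a title, and the e16 library was taken as the batch left over.

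Classes were gated as the report describes. Values were averaged over cells per class and library and scaled to 1000000 (CPM). limma 3.58.1 (R 4.3.3; trend) was run on log2(CPM + 5), which understates changes of low genes, over genes that averaged at least 10 CPM, with Benjamini-Hochberg adjustment over all genes tested and 0.05 as the threshold. Classes of 1 library are paired by that library, which was a block. The fits were also run on simulated profiles with known changes. Those changes were the same in every simulated library, so that run gives no error rate for these data. Errors are SE for differences and SD for levels. Alternatives were another pseudocount, no filter, centring, no block, summed UMIs, other cut-offs, no deep cells, and leaving out each library. The members, the partner list and the markers were chosen with earlier results of these data known. Genes named are the members, the gate and marker genes, up to 3 called partners with the largest difference per comparison (others are named only to complete a count of 5 or fewer), and the 5 genes most like each member. 1 partner gene that this rule names is not reported here. Python 3.11.15, numpy 2.4.6, pandas 2.3.3 and matplotlib 3.10.9 were used.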

Additional observations from a re-analysis of the deposited data

Results flagged for a closer look

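Cbfa2t2 in Sox2 progenitors had 20.5 CPM in RL e14 replicate 2, lower than the other 3 RL libraries by a gap that was large for 4 values, although the whole range ended at 23.9 CPM. Chance gives such a gap in about 1 of 20 groups.

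In the comparison of Atoh1 progenitors with Sox2 and Atoh1 cells, Cbfa2t2 differed by -0.24 and -0.28 (log2) in RL e14 replicates 1 and 2, against 1.39 and 0.12 in RL e13 replicates 1 and 2. The signs differ between the ages by title, and this difference was not tested. RL e13 replicate 2 has e14 in its age tag, and RL e13 replicate 1 is the library that stood apart.

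In the comparison of Eomes and Lmx1a cells with Mapt-high cells, Runx1t1 differed by 0.19 in the e16 library, against -1.40 and -1.20 in RL e14 replicates 1 and 2 and -0.82 in RL e13 replicate 2. Cbfa2t2 differed there by -0.081 in the e16 library and 0.24 in RL e13 replicate 2. Each group had 1 or 2 libraries, and neither difference was tested.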

How the results depend on the processing

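Changes from Atoh1 progenitors to Eomes and Lmx1a or Mapt-high cells, and from Sox2 to Atoh1 progenitors, kept direction and call for all 3 members under each alternative that could be fitted (12, 12 and 13). In Atoh1 against Sox2 progenitors these ran from 1.65 to 2.07 for Cbfa2t2, 3.26 to 4.30 for Cbfa2t3 and 1.22 to 1.84 for Runx1t1. The changes from Atoh1 progenitors rest on 3 libraries, so their fits without a library had fewer than 3. For the other comparisons, the cause of a change named here was not tested. With cut-offs doubled, comparisons with Sox2 and Atoh1 cells could not be fitted, and neither could Mapt-high against Mapt-low Eomes and Lmx1a cells with any other cut-off, for want of 3 libraries with 20 cells in both classes.

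The classes of a library were paired in the fits. With no replicate block, 1576 genes (2477 with it) were called in Atoh1 against Sox2 progenitors, 390 (875) in Sox2 and Atoh1 cells against Sox2 progenitors, 42 (458) in Atoh1 progenitors against Sox2 and Atoh1 cells, 104 (642) in Eomes and Lmx1a against Mapt-high cells, 1201 (1962) in Mapt-high against Mapt-low Eomes and Lmx1a cells and 1130 (2339) in cycling against non-cycling Atoh1 progenitors. Without the block, limma adjusted p was 0.0607 for Cbfa2t3 in Sox2 and Atoh1 cells against Sox2 progenitors (2.79), 0.40 for Runx1t1 in Atoh1 progenitors against Sox2 and Atoh1 cells (0.94), and 0.0556 for Cbfa2t2 (-0.60) and 0.578 for Runx1t1 (0.34) in cycling cells. In e14 against e13 libraries, same-numbered libraries did not deviate together (r = 0.0608 over 8426 genes), and the replicate block gave 0 calls, with -0.06 for Cbfa2t2 (adjusted p = 0.857), 0.37 for Cbfa2t3 (0.431) and -0.83 for Runx1t1 (0.239). By age tag 85 genes were called, with 0.26 for Cbfa2t2 and 0.84 for Cbfa2t3 (0.0469). The small Cbfa2t2 difference there also turned positive with centring (0.017), cut-offs doubled (0.035) and cut-offs on thinned cells (0.11).

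With no filter on low values, calls numbered 300 in Atoh1 progenitors against Sox2 and Atoh1 cells, 0 in Eomes and Lmx1a against Mapt-high cells and 534 in Mapt-high against Mapt-low Eomes and Lmx1a cells. Cbfa2t2 then missed the threshold in Sox2 and Atoh1 cells against Sox2 progenitors (1.60, limma adjusted p = 0.0532) and in Mapt-high against Mapt-low cells (-0.72, 0.0776), and Runx1t1 in cycling cells (0.34, 0.0871). Runx1t1 in cycling cells also missed it with centring (0.32, 0.056), without the 5% deepest cells (0.28, 0.159), with cut-offs doubled (0.26, 0.245) and on thinned cells (0.28, 0.328). Cut-offs halved gave 380 calls in Eomes and Lmx1a against Mapt-high cells, 1.02 for Runx1t1 in Sox2 and Atoh1 cells against Sox2 progenitors (0.0119) and -0.59 for Cbfa2t3 in cycling cells (1.69e-08). Cut-offs on thinned cells gave 321 calls and -0.0055 for Cbfa2t2 in Eomes and Lmx1a against Mapt-high cells, and 0.91 for Runx1t1 in Sox2 and Atoh1 cells (0.0221). Runx1t1 in Eomes and Lmx1a against Mapt-high cells passed with summed UMIs (-0.85, 0.0453) and cut-offs doubled (-1.08, 0.0263).

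Leaving out each library in turn gave 1241 (without RL e13 replicate 2) to 3021 (without RL e13 replicate 1) calls in Atoh1 against Sox2 progenitors and 1388 (without RL e13 replicate 2) to 2176 in Eomes and Lmx1a cells against Atoh1 progenitors. It gave 4122 to 4720 in Mapt-high cells against Atoh1 progenitors and 1360 to 2041 in Mapt-high against Mapt-low cells. For Sox2 and Atoh1 cells against Sox2 progenitors the range was 173 (without RL e14 replicate 1) to 1486, with 1.36 to 2.09 for Cbfa2t2, 2.49 to 3.41 for Cbfa2t3 and 0.38 to 0.76 for Runx1t1. For Atoh1 progenitors against Sox2 and Atoh1 cells it was 234 (without RL e13 replicate 2) to 529, with -0.13 to 0.42 for Cbfa2t2, 0.26 to 1.245 for Cbfa2t3 and 0.81 to 1.10 for Runx1t1. For Eomes and Lmx1a against Mapt-high cells it was 2 (without RL e14 replicate 2) to 1818, with 8 without RL e13 replicate 2, and -0.036 to 0.21 for Cbfa2t2, 0.18 to 0.32 for Cbfa2t3 and -1.14 to -0.61 for Runx1t1. In Mapt-high against Mapt-low cells it was -0.80 to -0.65 for Cbfa2t2, -0.73 to -0.24 for Cbfa2t3 and 1.57 to 1.82 for Runx1t1. In cycling cells it was 1344 (without RL e14 replicate 1) to 3359 calls, with -0.75 to -0.52 for Cbfa2t2, -0.66 to -0.24 for Cbfa2t3 and 0.27 to 0.41 for Runx1t1. In e14 against e13 libraries it was 0 to 114 calls (without RL e13 replicate 2), with -0.28 to 0.17 for Cbfa2t2, -0.081 to 0.81 for Cbfa2t3 and -1.01 to -0.65 for Runx1t1. RL Eomes and Lmx1a classes rest on 38 to 69 cells in the 3 libraries used.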
